A study of Mus musculus with 10 samples.

Results

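Transcript levels of 10 genes of the cardiac intercalated disc were followed in mouse hearts labelled control or Prdm16 knockout, at 3 and at 12 months of age. The genes were taken by symbol and not by a cut on their values. Still, the genes were chosen with earlier results of these data known. They are the gap junction gene Gja1, the desmosome genes Dsp, Pkp2, Jup, Dsg2 and Dsc2, the adherens junction genes Cdh2 and Ctnna3, and the scaffold and adhesion genes Tjp1 and Cxadr. All 10 were found among the 46786 genes measured at 3 months and the 46977 measured at 12 months. All 10 also reached the mean of 1 FPKM that was asked of a gene before testing, which 12200 and 13179 genes did. FPKM is a normalised read count, scaled to transcript length and to library size, so levels of different genes can be compared with one another.

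Heart RNA was sequenced in 3 control and 3 Prdm16 knockout libraries at 3 months and in 2 control and 2 Prdm16 knockout libraries at 12 months. The labels give the genotype only as control or knockout, and name no allele, Cre driver, strain or sex. Prdm16 encodes a zinc-finger transcriptional regulator, and the series title speaks of an age-dependent heart phenotype, which is the question behind the comparison of the labels at each age. Where hearts are counted, libraries are meant, as the labels do not say that each library is a different animal. The p-values then cover only the spread among these libraries, which may be technical. The ages also differ in library preparation and in table, and levels were therefore tested only within an age. The 3-month values were deposited under a name that says all samples, and the 12-month values under one that says no outliers. Whether and which 12-month libraries were left out before deposit is not given.

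Intercalated discs are the end-to-end contacts of heart muscle cells. Desmosomes there tie the desmin filaments of neighbouring cells together, adherens junctions tie the contractile actin filaments, and gap junctions let current pass. In the heart muscle of mammals the desmosomal and adherens components mix along the disc, and inherited faults in desmosomal genes are a known cause of arrhythmogenic cardiomyopathy.

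None of the 10 genes passed the test at either age, where an adjusted p under 0.05 was reached by 0.746% of the 12200 genes tested at 3 months and by 0.395% of 13179 at 12 months. The difference of lowest p was that of Gja1 at 12 months, whose mean was 42.3% lower in knockout-labelled hearts. Jup, Dsc2, Cdh2 and Cxadr were lower in both of those hearts too, as 23% of all genes were. Dsg2 was higher in both, as 27.3% of all genes were. At 3 months Cxadr was the 1 gene whose groups did not overlap. There the knockout-labelled hearts were higher, as they were for 20.1% of all genes.

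Several facts of the libraries bear on every value that follows. Prdm16 itself did not separate the labels by the test. It stood at 1.44, 2.23 and 1.61 FPKM in the 3-month controls and at 1.43, 0.760 and 2.03 in the knockout-labelled hearts, a log2 difference of −0.22 (limma adjusted p = 0.602). At 12 months it stood at 6.31 and 5.05 against 4.02 and 3.58, a log2 difference of −0.47 (limma adjusted p = 0.340). Since reads from exons that were not deleted also count toward a gene, this is a weak check, and libraries are named by their labels throughout. At 12 months Xist, made from the inactive X of females, had control levels of 33.1 and 31.0 FPKM against 0.0911 and 0.0240 in the knockout-labelled hearts, and 4 Y-linked genes were higher in the latter. Label and sex-linked expression therefore cannot be told apart at 12 months. In all 6 libraries of 3 months Xist was at 0.490 FPKM or less. The spread of the log2 ratio between the 12-month controls was 0.103 over 8644 genes, as a robust SD, and that between the knockout-labelled libraries of that age was 0.437. Over genes of at least 50 FPKM the spread of the control pair was 2.85 times that expected from counting alone, so the controls were kept as 2 libraries that are very alike. Markers of heart muscle cells were abundant in every library, with a summed level of 43333 to 53599 FPKM in controls and 55001 to 57767 in knockout-labelled hearts at 3 months. The same sum was 85560 to 85787 against 90715 to 94992 at 12 months, and 0 of the 15 markers passed the test at either age. Fewer cells of a type and less RNA per cell cannot be told apart in such whole-tissue libraries.

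Upstream sequence is shown for the 3 members of highest mean level in the control hearts, Gja1, Dsp and Jup. Each run is the 250 bases before the RefSeq start (GRCm38.p6), read 5′ to 3′ on the strand of the gene. It lies at chr10:56377050-56377299 (plus strand) for Gja1, chr13:38151044-38151293 (plus strand) for Dsp and chr11:100397791-100398040 (minus strand) for Jup. Capitals mark matches on either strand to 4 motifs that were searched, the GC box GGGCGG, the AP-1 motif TGANTCA, the TATA box TATAAA and the T-box motif AGGTGT.
Gja1: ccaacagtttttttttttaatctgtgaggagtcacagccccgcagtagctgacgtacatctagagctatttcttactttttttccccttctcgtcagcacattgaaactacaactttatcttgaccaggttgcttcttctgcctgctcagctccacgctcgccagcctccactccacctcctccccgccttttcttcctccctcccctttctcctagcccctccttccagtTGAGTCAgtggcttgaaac
Dsp: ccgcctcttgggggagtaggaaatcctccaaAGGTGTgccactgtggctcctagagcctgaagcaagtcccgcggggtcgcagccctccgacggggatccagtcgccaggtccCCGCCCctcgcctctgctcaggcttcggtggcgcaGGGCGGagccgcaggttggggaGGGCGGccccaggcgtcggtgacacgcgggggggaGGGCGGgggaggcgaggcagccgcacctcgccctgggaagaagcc
Jup: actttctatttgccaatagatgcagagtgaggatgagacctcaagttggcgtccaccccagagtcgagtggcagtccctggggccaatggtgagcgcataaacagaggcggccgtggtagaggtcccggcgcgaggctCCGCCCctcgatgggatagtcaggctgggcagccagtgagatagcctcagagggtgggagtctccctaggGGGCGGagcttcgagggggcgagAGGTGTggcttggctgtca
The Gja1 window held 1 AP-1 match, which begins 19 bases before the start, and none of the other motifs. The Dsp window held 4 GC boxes and 1 T-box motif, and the Jup window 2 GC boxes and 1 T-box motif. Base composition differed too, with 50% G and C upstream of Gja1, 62% upstream of Jup and 72.4% upstream of Dsp. Among 32817 upstream windows of this length, 6.75% held the AP-1 motif, 32.7% the GC box, 12.4% the TATA box and 11.8% the T-box motif. Such a match is a description of letters and not of a bound site.

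Gja1 encodes connexin 43, the main gap junction protein of working ventricular muscle, and lies on chromosome 10 from 56377330 to 56402513 (plus strand, GRCm38). It was the most abundant of the 10 genes in each of the 4 groups. Its 3-month levels were 118, 132 and 104 FPKM in controls against 114, 103 and 114 FPKM in the knockout-labelled hearts. The groups overlapped throughout. The log2 difference was −0.09 (SE 0.13), with a limma adjusted p of 0.740. At 12 months it stood at 241 and 243 FPKM in controls and 149 and 130 FPKM in knockout-labelled hearts. Both knockout-labelled hearts lay well below both controls, and the distance between the groups exceeded that between libraries of a group. Mean levels were 242 ± 1.63 and 139 ± 13.7 FPKM (SD, n = 2 each), 42.3% lower in the knockout-labelled hearts. On the log2(FPKM + 1) scale the difference was −0.79 (SE 0.12, 95% interval −1.13 to −0.45).

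That difference in Gja1 did not pass the adjustment over all 13179 genes at 12 months (limma, Benjamini-Hochberg adjusted p = 0.174). Its unadjusted limma p was 0.00272. By exact permutation (two-sided) of 2 against 2 libraries p was 0.333, the smallest such a design allows. With all 10 libraries in 1 fit, which shares the estimate of spread between ages, Gja1 passed at 12 months (limma adjusted p = 0.0164), where 3.77% of 11580 genes passed. It also passed without knockout replicate 1 (−0.89, limma adjusted p = 0.0125) or without knockout replicate 2 (−0.69, limma adjusted p = 0.0277). In those fits 33.4% and 4.98% of genes passed, and the lone library left in the knockout arm was assumed to vary like the control pair. Without either control Gja1 did not pass (log2 −0.80 without replicate 1 and −0.79 without replicate 2), in limma fits where 0 genes passed, so the call rested on which library was left out. Gja1 is also made by fibroblasts and mural cells, whose markers were mostly lower as well at 12 months. The summed level of 12 such markers was 1423 to 1433 FPKM in the 12-month controls and 1016 to 1136 in the knockout-labelled hearts. Of them, 10 were below 0 in log2 difference, where 48.5% of all genes were. An unadjusted limma p under 0.05 was reached by 9 of them, beside 13.6% of all genes, and 0 passed the test. None of the 12 was at 0 in all libraries. Their part in the Gja1 value was not tested.

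**Figure D1:**
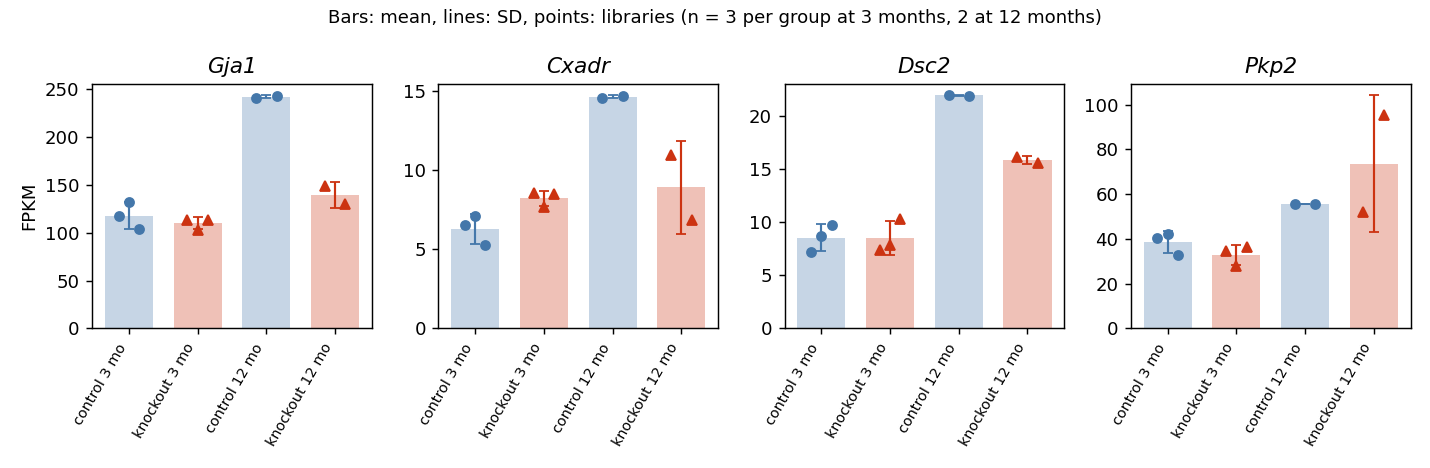
FPKM of Gja1, Cxadr, Dsc2 and Pkp2 in each group (bars are means, lines SD, points libraries; n = 3 per group at 3 months and 2 at 12 months). At 12 months both knockout-labelled libraries lie below both controls for Gja1, Cxadr and Dsc2, while for Pkp2 1 of them, at 95.2 FPKM, lies far above and the other just below.

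The other connexins gave a reference for Gja1. Gja5, which encodes connexin 40 of atrial muscle, conduction tissue and arterial endothelium, stood at 11.8 and 12.0 FPKM in the 12-month controls and at 7.47 and 7.62 in the knockout-labelled hearts. Its log2 difference was −0.60 (SE 0.10; limma adjusted p = 0.188). At 3 months it stood at 1.45, 3.05 and 7.14 FPKM in controls and at 3.73, 11.6 and 9.84 in knockout-labelled hearts, with means of 3.88 ± 2.93 and 8.39 ± 4.13 (SD, n = 3 each) and overlap between the labels (limma adjusted p = 0.292). The ratio of Gja1 to Gja5 within a library, which is free of scaling, had 12-month means of 20.2 ± 0.101 and 18.5 ± 2.08 (SD, n = 2 each). At 3 months this ratio was 14.6 to 81.1 in controls and 8.88 to 30.4 under the knockout label, so the groups overlapped. Gja3, encoding connexin 46, stood at 8.82 and 8.22 FPKM in the 12-month controls against 5.74 and 6.27 (log2 −0.44, limma adjusted p = 0.273). Panx1, a channel-forming pannexin, stood at 0.753, 0.736 and 0.924 FPKM in the 3-month controls and at 1.52, 2.17 and 1.60 in the knockout-labelled hearts. All 3 of these lay above all 3 controls, with a log2 difference of 0.61 (SE 0.14; limma adjusted p = 0.0988). Of the 11 other connexins and pannexins, 6 were tested at each age and 0 passed at either. At 3 months all 6 were above 0, with a median of 0.43, and at 12 months 2 were above and 4 below, with a median of −0.18. Of all genes 35% were below 0 at 3 months and 48.5% at 12 months, with medians of 0.09 and 0.01.

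Markers of atrial muscle, 10 in all, varied widely between libraries beside Gja5. Myl7, the atrial myosin light chain gene, stood at 84.2, 39.4 and 779 FPKM in the 3-month controls and at 113, 2568 and 891 in the knockout-labelled hearts. The 3 libraries of highest Gja5 at that age were also the 3 of highest Myl7. At 12 months Myl7 stood at 1275 and 1244 FPKM in controls against 153 and 749. The summed level of the 10 was 728 to 6286 FPKM in controls and 12374 to 28844 in knockout-labelled hearts at 3 months. It was 6275 to 6435 against 13754 to 16011 at 12 months. Nppa, the atrial natriuretic peptide gene, weighed most in the knockout-labelled sums. There it stood at 11824 to 19851 FPKM at 3 months, and at 15104 and 11263 at 12 months. Controls had 561 to 3825 FPKM of Nppa at 3 months, and 3313 and 3234 at 12 months. In log2 difference 9 of the 10 were above 0 at 3 months, with a median of 2.19, and 4 at 12 months, with a median of −0.31. At 12 months 5 were lower without overlap, as 23% of all genes were. Another 4, with Nppa, were higher, as 27.3% were. Nppa passed at 3 months (log2 3.74, limma adjusted p = 0.0402). None of the 10 was at 0 in all libraries. Their part in the values of Gja5 and of the 10 disc genes was not tested.

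Desmoplakin, the product of Dsp (chromosome 13, 38151294 to 38198577, plus strand), links the desmosome to desmin filaments. Its level was 56.9, 72.5 and 55.0 FPKM in the 3-month controls and 56.4, 56.0 and 57.9 in the knockout-labelled hearts. Apart from 1 higher control the 6 values were almost equal, and the log2 difference was −0.10 (SE 0.14; limma adjusted p = 0.723). The 12-month levels were 112 and 117 FPKM in controls against 142 and 98.5. The knockout-labelled libraries thus lay on either side of the controls, with a log2 difference of 0.05 (SE 0.21; limma adjusted p = 0.932). Exons of Dsp share 499 bases with Gm10129 on the opposite strand, which stood at 0.689 FPKM or less in every library.

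Plakophilin 2, from Pkp2 (chromosome 16, 16213318 to 16272712, plus strand), is an armadillo protein that joins desmosomal cadherins to desmoplakin. It stood at 40.6, 42.2 and 32.8 FPKM in the 3-month controls and at 34.6, 27.7 and 36.2 in the knockout-labelled hearts, groups that overlapped (log2 −0.23, SE 0.15, limma adjusted p = 0.453). At 12 months the controls were at 55.5 and 55.7 FPKM and the knockout-labelled hearts at 51.8 and 95.2. No other of the 10 genes had knockout-labelled libraries so far apart at that age. The log2 difference was 0.33 (SE 0.32, limma adjusted p = 0.655), and it rested on which knockout library was kept. Without knockout replicate 2 it was −0.10 (limma adjusted p = 0.233), and without knockout replicate 1, where 33.4% of all genes passed, it was 0.76 (limma adjusted p = 0.0145). The ratio of Dsp to Pkp2 was 2.03 and 2.09 in the 12-month controls and 2.73 and 1.03 in the knockout-labelled hearts.

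Plakoglobin, from Jup (chromosome 11, 100368958 to 100397763, minus strand), is a catenin found in desmosomes and adherens junctions alike. At 3 months its level was 53.9, 82.1 and 53.2 FPKM in controls and 62.1, 74.1 and 62.2 in knockout-labelled hearts. The highest value was a control, and the log2 difference of 0.09 (SE 0.18, limma adjusted p = 0.823) turned to −0.01 after rescaling to TPM or by median of ratios. The 12-month levels were 109 and 115 FPKM against 108 and 85.6, so both knockout-labelled values lay below both controls, 1 of them only just (log2 −0.22, SE 0.16, limma adjusted p = 0.565). The ratio of Jup to Ctnnb1, the gene of the related beta-catenin, was 0.765 and 0.814 in the 12-month controls and 0.730 and 0.645 in the knockout-labelled hearts. At 3 months it overlapped between labels, with means of 0.585 ± 0.103 and 0.620 ± 0.0676 (SD, n = 3 each).

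Dsg2 and Dsc2 encode desmoglein 2 and desmocollin 2, the desmosomal cadherins of heart muscle, and lie on chromosome 18 (20558074 to 20604521, plus strand, and 20030633 to 20059554, minus strand). At 3 months Dsg2 stood at 6.72, 10.7 and 8.66 FPKM in controls and at 6.99, 7.16 and 8.73 in knockout-labelled hearts (log2 −0.15, SE 0.17, limma adjusted p = 0.654). Dsc2 stood at 7.19, 8.73 and 9.71 FPKM against 7.39, 7.82 and 10.3 (log2 −0.01, SE 0.16, limma adjusted p = 0.979). Both genes overlapped between labels at that age. At 12 months the labels were apart for both, in opposite directions. Dsg2 was at 20.4 and 20.1 FPKM in controls and at 22.6 and 23.5 in knockout-labelled hearts, a small difference in which both were above both controls (log2 0.18, SE 0.10, limma adjusted p = 0.504). Dsc2 was at 21.9 FPKM in each control and at 16.1 and 15.6 in the knockout-labelled hearts, 27.6% lower in the mean. The log2 difference for Dsc2 was −0.44 (SE 0.10, 95% interval −0.72 to −0.16, limma adjusted p = 0.252), and of the fits with 1 library left out it passed in that without knockout replicate 1 (limma adjusted p = 0.0239). There the knockout arm was 1 library, and 33.4% of all genes and 7 of the 10 members passed. The ratio of Dsg2 to Dsc2 does not depend on how the libraries were scaled. It was 0.931 and 0.917 in the 12-month controls and 1.40 and 1.51 in the knockout-labelled hearts, an order the other way round in each library. At 3 months the ratio overlapped between labels, with means of 1.02 ± 0.184 for control and 0.903 ± 0.0499 for knockout (SD, n = 3 each). Exons of Dsg2 share 330 bases with the antisense gene Gm16090, which was at 0.151 FPKM or less.

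Desmosome genes are also made by epithelium and mesothelium. Of 12 such markers Krt5 and Sftpc were at 0 at both ages, and Epcam and Cdh1 did not exceed 0.0692 FPKM in any library. Their summed level was 15.4 to 30.8 FPKM in controls and 5.97 to 11.5 in knockout-labelled hearts at 3 months, where the airway gene Scgb1a1 alone stood at 11.1, 26.8 and 10.6 FPKM in controls and passed the test (log2 −3.71, limma adjusted p = 0.00129). It was 29.7 to 30.8 against 6.30 to 21.4 at 12 months. Of the 5 markers tested at that age 4 were below 0, with a median of −1.11, and 0 passed. Msln was lower in both knockout-labelled hearts, at 10.03 and 10.02 FPKM in controls against 1.31 and 5.03. So were Upk3b, at 9.40 and 8.99 against 1.12 and 5.76, and Krt19, at 4.89 and 4.66 against 0.674 and 3.26. The mesothelial marker Wt1 overlapped between labels, at 2.83 and 2.40 FPKM in controls against 2.07 and 3.61 (log2 0.06). Krt18 overlapped too, at 1.78 and 1.86 FPKM against 0.763 and 2.36. Msln had an unadjusted p of 0.0326 (limma adjusted p = 0.327). Their part in the desmosomal values was not tested.

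N-cadherin, from Cdh2 (chromosome 18, 16588877 to 16809246, minus strand), is the cadherin of cardiac adherens junctions. It stood at 34.3, 37.6 and 27.9 FPKM in the 3-month controls and at 27.2, 23.5 and 31.5 in the knockout-labelled hearts, with overlap (log2 −0.27, SE 0.16, limma adjusted p = 0.387). Levels at 12 months were 68.7 and 68.0 FPKM against 57.8 and 54.4, both knockout-labelled values being below both controls. The log2 difference then was −0.28 (SE 0.11, 95% interval −0.57 to 0.01, limma adjusted p = 0.377). The estimates for Cdh2 at the 2 ages were thus almost equal, though neither passed the test.

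Ctnna3 encodes alphaT-catenin, which binds plakophilin 2 as well as beta-catenin, and lies on chromosome 10 from 63430098 to 65003667 (plus strand). It was the least abundant member except in the 12-month knockout-labelled hearts, at 2.90, 3.88 and 2.76 FPKM in the 3-month controls and 2.67, 2.87 and 3.06 in the knockout-labelled hearts (log2 −0.10, SE 0.14, limma adjusted p = 0.724). Levels at 12 months were 11.6 and 10.8 FPKM in controls and 13.3 and 7.68 in the knockout-labelled hearts. As with Dsp, the knockout-labelled values fell on either side of the controls (log2 −0.13, SE 0.27, limma adjusted p = 0.836). The ratio of Cdh2 to Ctnna3 was 5.93 and 6.27 in these controls against 4.36 and 7.07.

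Tjp1 encodes the scaffold ZO-1, which binds connexin 43 and lies at the edge of gap junction plaques (chromosome 7, 65296165 to 65527781, minus strand). It stood at 8.49, 9.11 and 8.46 FPKM in the 3-month controls and at 7.19, 7.78 and 9.82 in the knockout-labelled hearts (log2 −0.07, SE 0.13, limma adjusted p = 0.800). At 12 months it stood at 23.9 and 28.1 FPKM against 24.8 and 17.7, again with overlap (log2 −0.29, SE 0.21, limma adjusted p = 0.564). Tjp1 followed the mean of the 10 genes more closely over the libraries than any other member, with a root mean square distance of 0.106 on the centred log2 scale.

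Cxadr encodes the coxsackievirus and adenovirus receptor, a cell adhesion protein of the disc needed for conduction through the atrioventricular node (chromosome 16, 78301489 to 78359774, plus strand). At 3 months it stood at 6.54, 7.07 and 5.25 FPKM in controls and at 8.51, 7.68 and 8.48 in knockout-labelled hearts. All 3 knockout-labelled values were above all 3 controls. Mean levels were 6.29 ± 0.936 and 8.22 ± 0.472 FPKM (SD, n = 3 each), and the log2 difference was 0.35 (SE 0.13, limma adjusted p = 0.218). By exact permutation (two-sided) p was 0.1, the smallest that 3 against 3 allows. At 12 months the order was the other way round, with 14.5 and 14.7 FPKM in controls and 10.9 and 6.83 in knockout-labelled hearts. That difference was −0.69 (SE 0.24, 95% interval −1.34 to −0.04, limma adjusted p = 0.353). Exons of Cxadr share 695 bases with Btg3 on the opposite strand. Strand-aware counting is not stated in the labels, so reads of that stretch cannot be told apart. Btg3 stood at 1.06 to 1.16 FPKM in the 3-month controls and at 1.51 to 1.75 in the knockout-labelled hearts, higher there as Cxadr was (log2 0.31, limma adjusted p = 0.220), and at 0.345 FPKM or less at 12 months. Its part in the Cxadr value was not tested.

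**Figure D2:**
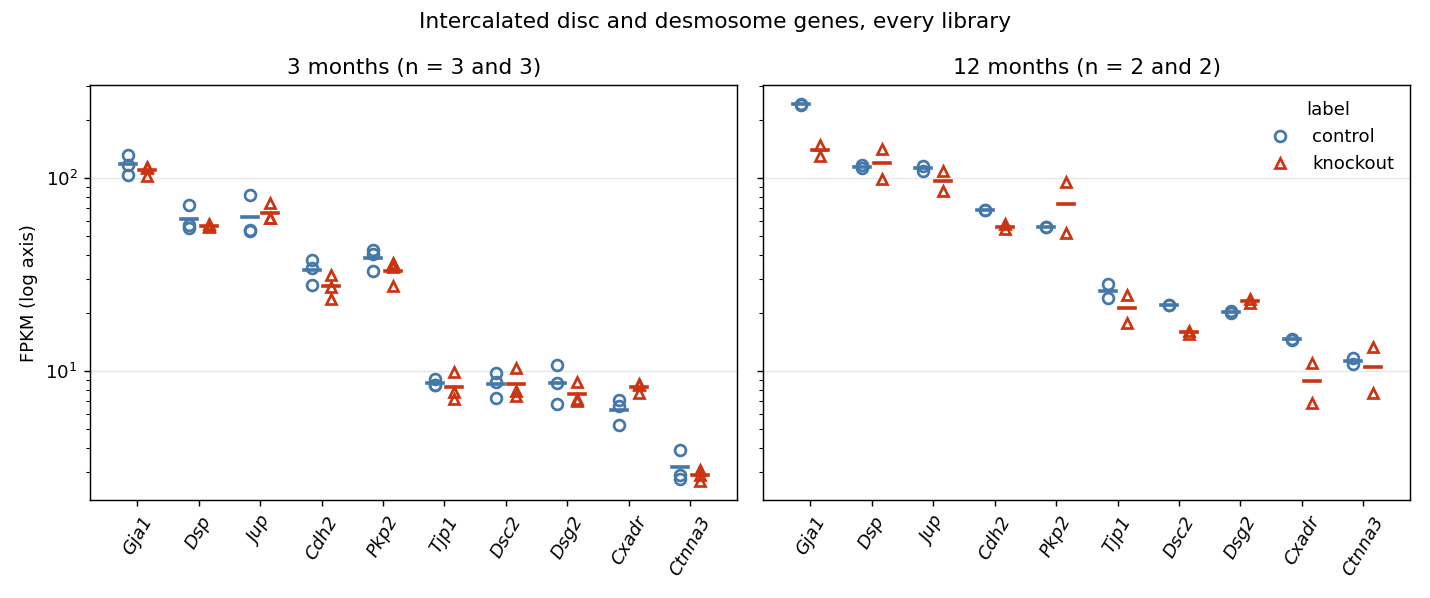
FPKM of the 10 genes in every library on a log axis, circles for controls, triangles for knockout-labelled hearts and short lines for the means (3 and 3 libraries at 3 months, 2 and 2 at 12 months). Gja1 is the highest gene in each group, and at 12 months its knockout-labelled libraries, at 149 and 130 FPKM, are set apart from the controls at 241 and 243.

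Counted together, 0 of the 10 genes passed at 3 months and 0 of 10 at 12 months, with adjusted p from 0.218 to 0.979 and from 0.174 to 0.932 (limma). At an unadjusted p under 0.05 there was 1 of 10 at 3 months (Cxadr), where 18.2% of all genes were under it. There were 3 of 10 at 12 months (Gja1, Dsc2 and Cxadr), beside 13.6% of all genes. At 3 months 8 genes were below 0 and 2 above, where 35% of all genes were below 0. Their median log2 difference was −0.10, against 0.09 over all genes tested. Both rest on control replicate 2, without which 5 were below and 5 above 0 and the median was 0.00. At 12 months 7 were below 0 and 3 above, where 48.5% of all genes were below 0, and the median was −0.25 against 0.01. Without knockout replicate 1 that median was −0.43, and without knockout replicate 2 it was −0.080.

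The groups did not overlap for 1 gene at 3 months, Cxadr, higher in knockout-labelled hearts as 20.1% of all genes were. A further 4.6% of all genes were lower without overlap, 24.7% in all. At 12 months they did not overlap for 6 genes, where this held for 50.3% of all genes. Gja1, Jup, Dsc2, Cdh2 and Cxadr, 5 of the 10, were lower in both knockout-labelled libraries, as 23% of all genes were. Dsg2 was higher in both, as 27.3% of all genes were. Rescaling each library to TPM moved the median over all genes at 12 months from 0.01 to −0.27, and that of the 10 genes from −0.25 to −0.57, with 9 of 10 below 0. On that scale Dsg2 was at −0.13 and Dsp at −0.28, below 0 along with most genes. With median-of-ratios or cardiomyocyte marker rescaling the 12-month median of the 10 genes was −0.27 and −0.25.

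**Figure D3:**
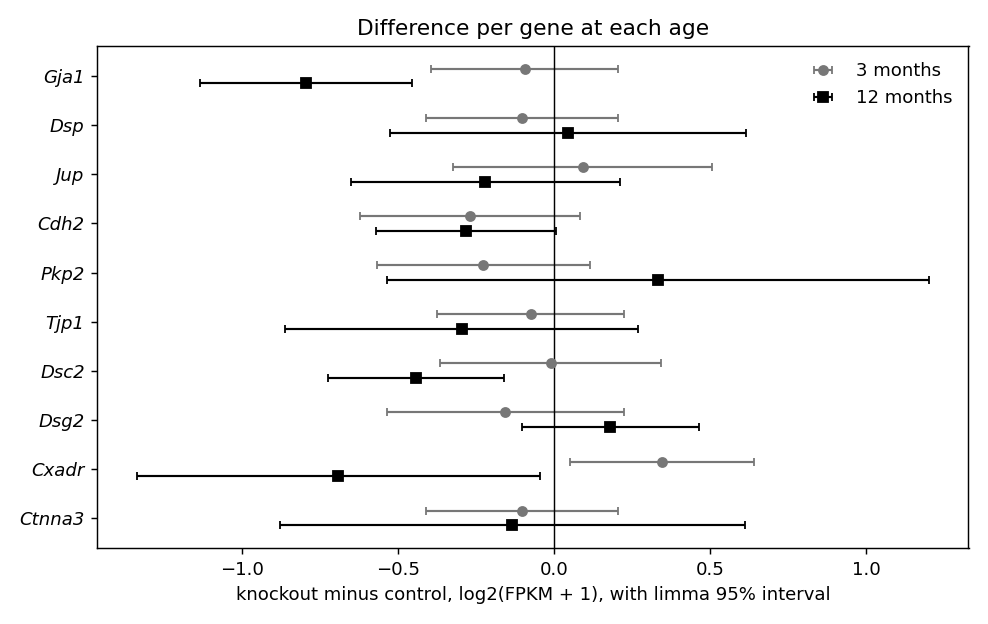
Difference of knockout minus control for each of the 10 genes on the log2(FPKM + 1) scale, with limma 95% intervals, at 3 months (grey) and 12 months (black). At 12 months the intervals of Gja1, Dsc2 and Cxadr lie below 0, and at 3 months that of Cxadr lies above 0, before any adjustment over genes.

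Whether the label differences themselves differed between ages was tested in 1 fit of all 10 libraries over the 11580 genes tested at both ages. At 12 months, unlike at 3 months, the labels also parted in sex-linked expression, and library preparation differed between the ages. A change with age cannot be told apart from these. Of the 10 genes 0 passed this test, where 1.38% of all genes did. Cxadr came nearest, with a difference between ages of −1.04 (SE 0.25, 95% interval −1.60 to −0.48, limma adjusted p = 0.0816). It passed when libraries were rescaled to equal cardiomyocyte markers (−0.96, limma adjusted p = 0.0442), as did 1.39% of all genes. Without knockout replicate 1 of 12 months Cxadr also passed (−1.34, limma adjusted p = 0.00564), as did Gja1 and Pkp2 and 6.79% of all genes. Its groups were apart in opposite directions at the 2 ages, higher at 3 months and lower at 12, which held for 3.69% of all genes (5.03% counting either order). Gja1 followed with −0.70 (SE 0.19, limma adjusted p = 0.107), and Dsc2 with −0.43 (SE 0.22, limma adjusted p = 0.381). For Pkp2 the difference was 0.56 (SE 0.32, limma adjusted p = 0.443). The values of Cdh2, Ctnna3 and Dsp were −0.01, −0.03 and 0.15, with standard errors of 0.22, 0.28 and 0.24.

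In some libraries most of the 10 genes leaned the same way. Centred on the mean of their age, they averaged 0.22 in control replicate 2 of 3 months, where 9 of 10 were above 0. They averaged −0.22 in knockout replicate 2 of 12 months, where 8 of 10 were below 0. All other libraries lay between −0.10 and 0.13. Among them, knockout replicate 1 of 3 months had 9 of 10 below 0. Knockout replicate 1 of 12 months had 5 above and 5 below. The share of all genes on the same side in a library was not counted. Control replicate 2 was also the library of lowest summed FPKM, 516272 against 626492 to 718787 in the other 3-month libraries, and it held Ryr2, an abundant heart muscle calcium channel gene, at 0. Pkp2 departed most from the mean of the 10, with a root mean square distance of 0.318, followed by Cxadr at 0.241. Among the 6669 genes averaging at least 5 FPKM at both ages, the profiles nearest to the mean of the 10 over the 10 libraries were those of Plpp3 (0.0369), Prrc1 (0.0383), Dcun1d2 (0.0407), Ppme1 (0.0416) and Nono (0.0430). Each lay nearer to that mean than any of the 10 genes did, Tjp1 being the nearest of those at 0.106. An average of 10 genes varies less than single genes do, and these 5 were the closest of 6669. The ranking therefore cannot show whether the profile is particular to disc genes. Plpp3 averaged 24.0 and 23.6 FPKM in the control and knockout-labelled hearts of 3 months and 45.4 and 37.4 FPKM at 12 months.

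**Figure D4:**
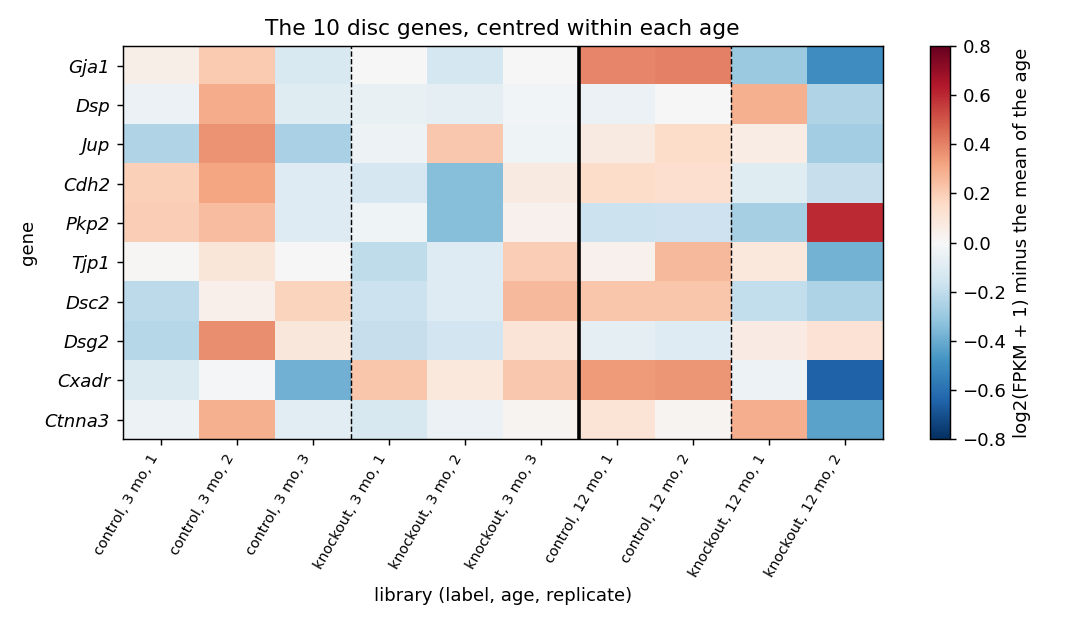
Each gene (rows) in each library (columns), as log2(FPKM + 1) minus the mean of the age; the solid line parts the ages and the dashed lines part control from knockout-labelled libraries. Control replicate 2 of 3 months is above the mean for 9 of 10 genes, Gja1 is below it in both knockout-labelled libraries of 12 months, and Pkp2 is far above it in the second of these.

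The order of the levels was much alike in all 4 groups. In the 3-month controls it ran Gja1 (118 FPKM), Jup (63.1), Dsp (61.5), Pkp2 (38.5), Cdh2 (33.3), Dsg2 (8.70), Tjp1 (8.69), Dsc2 (8.54), Cxadr (6.29) and Ctnna3 (3.18). Jup and Dsp overlapped in range, as did Pkp2 and Cdh2, and Dsg2, Tjp1 and Dsc2. In the 12-month controls it ran Gja1 (242 FPKM), Dsp (114), Jup (112), Cdh2 (68.4), Pkp2 (55.6), Tjp1 (26.0), Dsc2 (21.9), Dsg2 (20.2), Cxadr (14.6) and Ctnna3 (11.2), where only Dsp and Jup overlapped. In the 12-month knockout-labelled hearts the ranges of neighbours from Gja1 through Dsp (120), Jup (96.9) and Pkp2 (73.5) to Cdh2 (56.1) overlapped. Gja1 thus no longer stood clear of Dsp in range across libraries. Within each of these libraries it was still above Dsp, at 149 against 142 FPKM and at 130 against 98.5. Cxadr (8.89) was the lowest gene in that group.

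The wider set of junction genes, 82 in 5 further lists, was read from the same fits, and 0 of those tested passed at either age. Among 12 other desmosome genes, mostly of epidermis, 2 were tested at 3 months and 3 at 12, all above 0. Of all genes 35% were below 0 at 3 months and 48.5% at 12 months. Pkp4, a plakophilin-related armadillo gene, stood at 66.2 and 74.8 FPKM in the 12-month controls and at 106 and 85.0 in the knockout-labelled hearts (log2 0.43, limma adjusted p = 0.380). Its groups overlapped at 3 months (log2 0.04, limma adjusted p = 0.901). Perp, a desmosomal membrane protein gene, was at 83.7 to 94.2 FPKM in 3-month controls and 99.0 to 103 in knockout-labelled hearts (log2 0.18, limma adjusted p = 0.423). Its groups overlapped at 12 months (log2 0.0067, limma adjusted p = 0.982). Ppl, encoding periplakin, was low at 12 months, 0.703 and 0.771 FPKM against 1.83 and 1.47 (log2 0.60, limma adjusted p = 0.300).

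Adherens junction genes and catenins had 13 tested members at each age, with medians of 0.07 at 3 months and −0.02 at 12 months. Plekha7, a cadherin-associated protein gene, stood at 0.317, 0.539 and 1.73 FPKM in the 3-month controls and at 1.47, 4.35 and 3.46 in the knockout-labelled hearts (log2 1.14, limma adjusted p = 0.161), and it passed on the TPM scale (limma adjusted p = 0.0390). Nectin2, an adhesion receptor gene, was at 9.43 to 11.9 FPKM against 13.1 to 15.8 (log2 0.35, limma adjusted p = 0.218). At 12 months the focal adhesion genes Lpp and Zyx were apart in opposite directions. Lpp stood at 3.21 and 3.44 FPKM in controls against 2.14 and 1.63 (log2 −0.59, limma adjusted p = 0.282). Zyx stood at 31.8 FPKM in both controls against 47.1 and 39.6 (log2 0.43, limma adjusted p = 0.314).

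Tight junction scaffolds and related adhesion genes also had 13 tested members, with medians of 0.08 and −0.03. Cldn5, the claudin of endothelium, stood at 31.9, 35.6 and 30.3 FPKM in the 3-month controls and at 46.6, 56.5 and 45.9 in the knockout-labelled hearts (log2 0.59, SE 0.13, limma adjusted p = 0.0908). Jam3, a junctional adhesion molecule gene, was at 6.36 to 7.08 FPKM against 9.36 to 14.5 (log2 0.66, limma adjusted p = 0.109). In both, every knockout-labelled library lay above every control. At 12 months Jam2, of the same family, stood at 49.1 and 54.5 FPKM in controls against 72.0 and 69.4 (log2 0.44, limma adjusted p = 0.269). Magi1, a junction scaffold gene, stood at 6.76 and 7.07 FPKM against 5.17 and 5.05 (log2 −0.37, limma adjusted p = 0.306). Endothelial markers, 10 in all, had medians of −0.02 at 3 months and −0.04 at 12 months, and 0 passed.

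All 25 genes of disc-associated muscle and channel-anchoring proteins were tested, with medians of −0.05 at 3 months and 0.16 at 12 months. Csrp3, the muscle LIM protein gene, was at 979.7 to 1271 FPKM in the 3-month controls against 1557 to 1678 (log2 0.55, limma adjusted p = 0.144). Kcnj2, encoding the Kir2.1 channel of the resting potential, had 12-month control levels of 14.6 and 14.3 FPKM against 7.62 and 7.95, 46.2% lower (log2 −0.82, SE 0.11, limma adjusted p = 0.122). For the difference between ages 2 genes of this list passed. Xirp2, an actin-binding disc protein gene, had −0.11 at 3 months and 0.85 at 12 months, a difference of 0.96 (limma adjusted p = 0.0454). Cav3, the muscle caveolin gene, had 0.33 at 3 months and −0.57 at 12 months, a difference of −0.90 (limma adjusted p = 0.0427). Of 18 alternatives, 12 lost the call of Xirp2 and 10 that of Cav3.

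**Figure D5:**
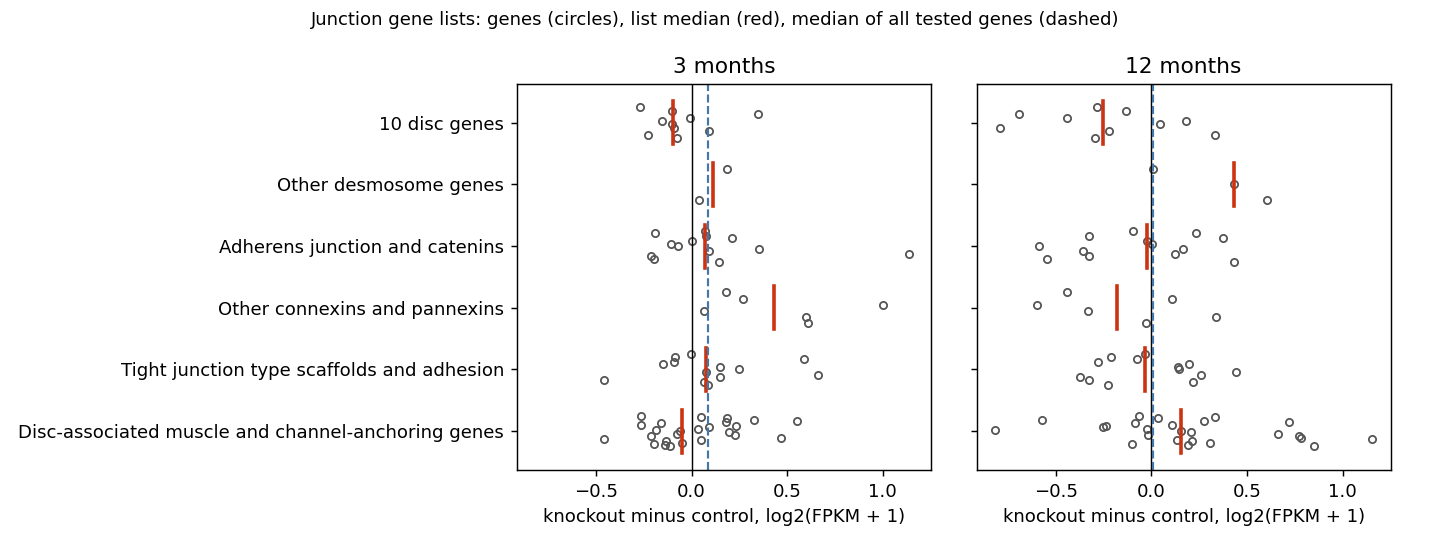
Difference of knockout minus control, log2(FPKM + 1), for each tested gene (circles) of the 10 disc genes and of 5 further junction lists, with list medians in red and the median of all tested genes dashed. At 12 months the 10 disc genes have the lowest list median, −0.25, and at 3 months it is −0.10.

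Gene length moved with the label differences. With the genes split into 5 equal groups by exon length, the median log2 difference at 3 months went from 0.29 in the shortest group to −0.03 in the longest. At 12 months it went from 0.08 to −0.05. The 10 disc genes are long, with exon lengths of 5277 (Dsc2) to 10257 (Gja1) bases, and all fell in the 2 groups of longest genes. At 3 months 7 were in the longest, whose median of −0.03 stands beside their own of −0.10, and at 12 months 6 were, where −0.05 stands beside −0.25. The part of length in the members' values was not tested.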

How the data were processed

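Total RNA of mouse hearts was sequenced. At 3 months a directional poly(A) kit was used, and the 12-month libraries were prepared elsewhere, per the labels' protocols. The authors deposited 1 table of FPKM per age, named as all samples at 3 months and as no outliers at 12 months. Per the submitters' processing notes, Cufflinks 2.1.1, STAR 2.5.1b, TopHat2 2.1.0 and FastQC were used with mm10 or GRCm38, without roles or order. Rows with a repeated identifier (69 at 3 months) were summed. Symbols and coordinates came from GENCODE M21 (GRCm38) by identifier, which matched 46297 and 46484 genes. Upstream sequences came from a RefSeq table (GRCm38.p6), in which 5 of the 10 genes matched.

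Genes averaging 1 FPKM or more at an age were fitted on log2(FPKM + 1) with limma 3.58.1 (R 4.3.3, empirical Bayes with trend). P-values were adjusted over all genes tested (Benjamini-Hochberg), and an adjusted p under 0.05 was called. Fold changes on this scale understate those of low genes. An interaction contrast over all 10 libraries tested the difference between ages. The pipeline was tested on simulated data. Low values at 12 months fell on steps that correspond to 26.9, 28.2, 24.5 and 19.5 M reads, seen in 11.2% to 13.0% of low genes. The 3-month values showed no clear step, and their depth is unknown. An exact 0 can be a failed estimate.

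All 10 genes are described. From each further junction list the 2 genes of lowest p per age were named, with genes called for a difference between ages. A gene of these is not reported here. The genes and lists were chosen with earlier results of these data known. Alternatives covered the pseudocount, the filter, 3 rescalings, the trend, the fit, a replicate block and each library left out.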

Additional observations from a re-analysis of the deposited data

Results flagged for a closer look

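Among the genes listed, 14 differed between ages in the difference between labels by the interaction test (limma adjusted p under 0.05). From the list of disc-associated muscle and channel-anchoring genes these were Xirp2 (12-month minus 3-month log2 difference of 0.96) and Cav3 (−0.90). The fibroblast and mural markers Col3a1 (−1.84) and Acta2 (−1.44) were among them. Red blood cell genes passed too, with −3.67 for Hba-a1, −3.87 for Hba-a2, −3.71 for Hbb-bs, −3.59 for Hbb-bt, −3.62 for Alas2 and −1.38 for Bpgm. The Y-linked genes had 4.46 for Ddx3y, 2.80 for Uty, 2.76 for Kdm5d and 5.25 for Eif2s3y. Since the labels parted in sex-linked expression at 12 months only, label and sex cannot be told apart in any of these differences.

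In 4 further genes every knockout-labelled library lay on one side of the controls at 3 months and on the other at 12 months, but the interaction did not pass. Cxadr had −1.04 (limma adjusted p = 0.0816), Magi1 −0.52 (limma adjusted p = 0.156), Egfl7, an endothelial marker, −0.73 (limma adjusted p = 0.235) and Scn4b, a sodium channel beta subunit gene, 1.61 (limma adjusted p = 0.218). Such opposite separation was found for 5.03% of the 11580 genes tested at both ages. No group held enough libraries for a check of single outlying samples.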

How the results depend on the processing

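No member passed at 3 months in any of 15 alternatives. At 12 months 1 passed with all 10 libraries in 1 fit, where 3.77% of all genes did, and 0 to 7 did when 1 library was left out, the 7 without knockout replicate 1, where 33.4% of all genes passed; for the difference between ages these were 1 after cardiomyocyte marker rescaling (1.39% of all genes) and 0 to 3, the 3 where 6.79% passed. The 12-month median of the members was −0.57 on the TPM scale and ran from −0.43 to −0.080 with 1 library left out, and the 3-month median from −0.16 to 0.00.

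Of all genes, 91 were called at 3 months (76 higher, 15 lower), 10 with no filter, 36 after cardiomyocyte marker rescaling (25 and 11), 61 by median of ratios (43 and 18), 29 with the replicate block and 22 to 81 with 1 library left out. At 12 months 52 were called (22 and 30), 17 with no filter, 47 on the TPM scale (14 and 33), 437 with all 10 libraries and 0 to 4409 with 1 left out. It was 0 without either control, 654 without knockout replicate 2 and 4409 without knockout replicate 1. For the difference between ages 160 were called (76 and 84), 55 with the replicate block, 122 on the TPM scale (33 and 89), 217 by median of ratios (129 and 88), 161 after cardiomyocyte marker rescaling (101 and 60) and 40 to 787 with 1 left out. Same-numbered libraries did not deviate together (correlations of −0.12, −0.46 and −0.14 at 3 months, −0.01 at 12 months), so the numbers were not taken as pairs, and the block called no member.

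Directions turned, never past the threshold, on the TPM scale for Jup at 3 months (−0.0094), Dsp (−0.28) and Dsg2 (−0.13) at 12 months, Dsp between ages (−0.071) and Pkp4 at 3 months (−0.061). By median of ratios they turned for Jup (−0.0096) and Pkp4 (−0.060) at 3 months and Cdh2 (0.072) and Ctnna3 (0.032) between ages. After cardiomyocyte marker rescaling they turned for Pkp4 at 3 months (−0.039) and Cdh2 (0.069) and Ctnna3 (0.029) between ages. With 1 library left out, the 3-month ranges that crossed 0 were −0.18 to 0.020 (Dsp), −0.014 to 0.30 (Jup), −0.14 to 0.078 (Dsc2), −0.17 to 0.013 (Ctnna3), −0.19 to 0.0091 (Tjp1) and −0.021 to 0.13 (Pkp4). At 12 months they were −0.21 to 0.31 (Dsp), −0.10 to 0.76 (Pkp2) and −0.49 to 0.22 (Ctnna3), and between ages −0.11 to 0.41 (Dsp), −0.12 to 0.10 (Cdh2), −0.39 to 0.33 (Ctnna3) and −0.45 to 0.013 (Tjp1). The cause was not tested. With 2 libraries a group at 12 months, and depth unknown at 3 months, the spread within a group is itself known only roughly.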
